A study of Rattus norvegicus with 6 samples.

Results

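Galectins are a family of small lectins that bind β-galactoside sugars, and the present description covers 4 of them, Lgals1, Lgals3, Lgals8 and Lgals9, together with Lgals3bp, a secreted glycoprotein to which galectins bind. All probe sets whose platform annotation named 1 of these 5 genes were taken, which gave 6 of the 31099 probe sets on the array. The genes were chosen by their corticosterone and vehicle signals on these same arrays, so the differences between the treatments are given for them as a description, without a test. The cells were neuronal progenitor cells, which still divide and later give neurons and glia, from the cerebral cortex of rat embryos at E15.5. They grew on fibronectin, with bFGF (basic fibroblast growth factor, which maintains their division) at 20 ng/ml. The treated group had 1 µM corticosterone, the main glucocorticoid of rodents, for 48 h, and the control group had its solvent dimethyl sulfoxide (vehicle) for the same time. Each group held 3 samples on 1 Affymetrix array each, joined into 3 couples of 1 corticosterone and 1 vehicle sample, and fibronectin and bFGF were common to all 6. Nothing in the labels states whether couples came from separate cultures or litters, so the spread between them may be technical.

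Galectins leave the cell without a signal peptide and act in several places. Outside the cell they crosslink galactose-ending sugars on integrins, laminin and fibronectin, and inside it some of them mark lysosomes whose membrane has broken. Lgals1 is a prototype galectin that works as a dimer. Lgals3 is the chimera type, with a proline- and glycine-rich tail that lets it form larger complexes, while Lgals8 and Lgals9 carry a pair of sugar-binding domains in 1 chain. In the mouse brain Lgals1 is known from neural stem cells and astrocytes, and Lgals3 from activated microglia.

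Values are MAS5 signals on a linear scale, on which every array was scaled to the same trimmed mean. Their median over all probe sets was 124 to 134 on the corticosterone arrays and 108 to 122 on the vehicle arrays, and the 3′ to 5′ signal ratio of Actb, which is lower in more intact RNA, was 1.76 to 2.03 with corticosterone and 1.55 to 2.12 with vehicle. A signal of 22.8, under which 95% of 27 probe sets for bacterial genes lay, was taken as background. Differences are on the log2(signal + 28.6) scale, which understates changes of low signals, and 18625 probe sets entered the test after the dimmest 40% were left out. Of these, 2953 were called at a limma adjusted p under 0.05, 59.3% of them higher with corticosterone, or 30.4% after each array was centred on its median. The progenitor markers Nes, Sox2 and Vim were far above background on all 6 arrays, Nes at 3141, 3378 and 3635 with corticosterone and 2613, 2954 and 2913 with vehicle. Precision is limited by having 3 arrays per group.

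Lgals1 and Lgals3 were several times higher with corticosterone, Lgals8 differed little and in no common direction, and Lgals9 and Lgals3bp lay near or under the background. Of the 6 probe sets 4 passed the filter on low signals, those of Lgals1, Lgals3 and the pair of Lgals8. In the fit over all probe sets 2 of these 4 were called higher, where 9.40% of all tested probe sets were, and 0 were called lower, where 6.45% were. For both the 3 corticosterone signals all lay above the 3 vehicle signals, as they did for 12.5% of all tested probe sets (the reverse held for 10.1%). The genes were chosen with this contrast known, and nothing is read from these counts. The RNA was bulk, so more RNA per cell and more cells of a kind cannot be told apart in any result here.

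Lgals1 (probe set 1367628_at) had signals of 12122.5, 8279 and 5492 in corticosterone samples 1, 2 and 3, against 1633, 1847 and 1009 in the vehicle samples of the same couples. The groups were wide apart, with the lowest corticosterone signal well above the highest vehicle one. Within couples the signal was 7.42-fold, 4.48-fold and 5.44-fold higher with corticosterone. On the log2 scale the difference averaged 2.48 ± 0.37 (SD over couples, n = 3). The difference ranked 20th from the top among the 18625 probe sets tested. Couple 3 had the lowest Lgals1 signal in both groups.

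Lgals3 (1386879_at) had signals of 1486, 1212 and 482 with corticosterone and 94.9, 157 and 103 with vehicle. All 3 vehicle signals were above the background. The folds were 15.6, 7.7 and 4.70 in couples 1, 2 and 3. The mean log2 difference was 2.77 ± 0.83 (SD over couples, n = 3), ranked 10th from the top. The corticosterone arrays spread more than the vehicle arrays, with a highest-to-lowest ratio of 3.08 against 1.66. For Lgals1 the same ratios were 2.21 and 1.83.

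Lgals8 has 2 probe sets, and neither separated the treatments. The first (1368960_at) read 401, 325 and 349 with corticosterone and 414, 313 and 336 with vehicle, a mean log2 difference of 0.02 ± 0.05 (SD over couples, n = 3). The groups overlapped, and the order of the couples was the same in both. The second (1389329_at) read 621, 806 and 746 with corticosterone and 845, 685 and 796 with vehicle. Its differences of −0.43, 0.23 and −0.09 in couples 1, 2 and 3 did not share a sign. The mean of that probe set was −0.10 ± 0.33, and the first one turned to −0.09 when each array was centred on its median. Across the 6 arrays the pair correlated by −0.04, as a description of 6 points that share couples, so they did not follow the same array-to-array pattern.

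**Figure D1:**
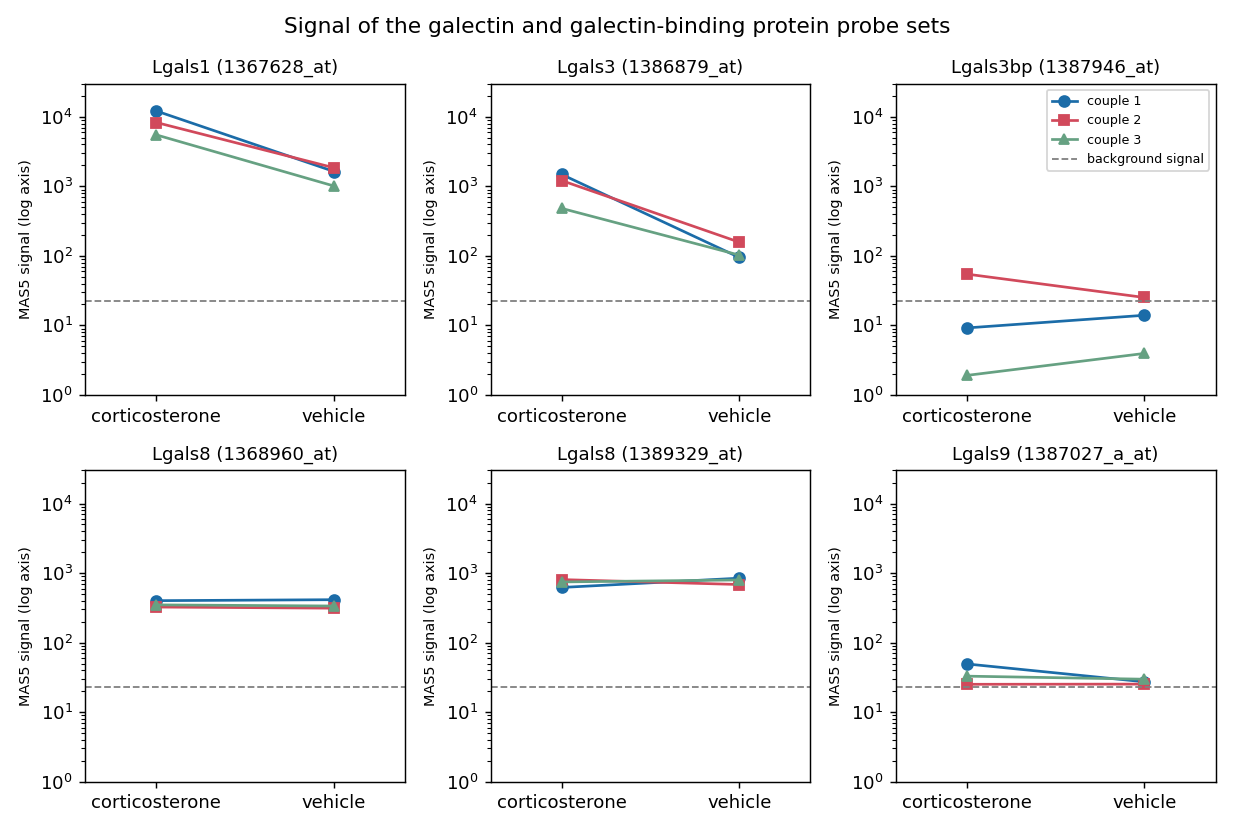
MAS5 signal (log axis) of the 6 probe sets in the corticosterone and vehicle samples, with 1 line per couple and the background signal of 22.8 as a dashed line. The lines of Lgals1 and Lgals3 drop steeply from corticosterone to vehicle in all 3 couples, those of both Lgals8 probe sets are nearly flat, and those of Lgals9 and Lgals3bp lie around the background.

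Lgals9, a tandem-repeat galectin known as a ligand of immune receptors, was dim. Its own probe set (1387027_a_at) read 49.3, 25.1 and 32.9 with corticosterone and 27.3, 25.3 and 29.8 with vehicle. All 6 values were just above the background, below the filter, and overlapped between groups, with 1 higher corticosterone value in couple 1. The mean log2 difference was 0.18 ± 0.26 (SD over couples, n = 3). A further probe set (1369716_s_at) is annotated to both Lgals9 and Lgals5 and cannot tell them apart. It read 69.3, 47.6 and 10.6 with corticosterone and 17.3, 53.3 and 30.0 with vehicle, so its couples did not share a direction.

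Lgals3bp, which binds Lgals3, Lgals1 and matrix proteins, was at or under the background on 4 of 6 arrays. Its signals (1387946_at) were 9.19, 54.7 and 1.91 with corticosterone and 14.0, 25.2 and 3.95 with vehicle. Only the 2 arrays of couple 2 exceeded the background. The mean log2 difference of 0.12 ± 0.44 (SD over couples, n = 3) was positive through couple 2 alone, and was −0.13 without it. At signals this low a difference was not detectable.

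Promoters from RefSeq (GRCr8, 250 bases before the start to 50 from it) were matched for 3 of the 5 genes, Lgals3bp, Lgals8 and Lgals9, and not for Lgals1 and Lgals3. The windows of Lgals3bp and of the Lgals9 and Lgals5 pair are shown because these genes are the dim ones and because the array cannot fully separate the pair. Capitals mark matches, on either strand, to 6 motifs: the palindromic glucocorticoid receptor site, its hexamer AGAACA, the AP-1 letters TGANTCA, the Sp1-type letters GGGCGG, the TATA box TATAAA and the interferon-stimulated response element.
Lgals3bp promoter, chr10:104127799-104128098, minus strand: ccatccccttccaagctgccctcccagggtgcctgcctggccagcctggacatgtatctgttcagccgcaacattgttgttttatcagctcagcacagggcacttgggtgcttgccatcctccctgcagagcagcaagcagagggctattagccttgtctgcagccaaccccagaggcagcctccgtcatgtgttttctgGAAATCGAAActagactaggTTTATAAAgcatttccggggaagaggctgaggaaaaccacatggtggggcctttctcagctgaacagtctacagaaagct
Lgals9 promoter, chr10:64428021-64428320, minus strand: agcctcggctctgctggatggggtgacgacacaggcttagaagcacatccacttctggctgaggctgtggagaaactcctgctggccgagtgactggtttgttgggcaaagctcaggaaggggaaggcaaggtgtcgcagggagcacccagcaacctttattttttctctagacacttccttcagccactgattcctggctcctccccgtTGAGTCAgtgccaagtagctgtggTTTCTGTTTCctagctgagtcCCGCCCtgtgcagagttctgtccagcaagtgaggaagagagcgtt
Lgals5 promoter, chr10:64355088-64355387, minus strand: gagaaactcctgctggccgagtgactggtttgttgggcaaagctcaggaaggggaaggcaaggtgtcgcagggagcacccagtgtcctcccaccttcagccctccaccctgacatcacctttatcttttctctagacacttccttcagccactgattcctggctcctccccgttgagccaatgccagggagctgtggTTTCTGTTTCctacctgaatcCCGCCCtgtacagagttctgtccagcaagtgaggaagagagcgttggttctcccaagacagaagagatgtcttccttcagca

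In Lgals3bp the match to the interferon-stimulated response element began 50 bases before the annotated start and TATAAA 28 bases before it, with TATAAA also matched on the opposite strand in overlapping letters. Lgals9 held that element on the opposite strand 16 bases before the start and TGANTCA 40 bases before it. Its window and that of Lgals5 aligned over 231 base pairs at 96.5% identity, with 32 gap positions not counted. The Lgals5 window held the interferon-stimulated response element too, and not the AP-1 letters. In the gene table of that assembly 1 gene lies between the pair. The element occurs in 3.92% of the 33469 promoters of the table, TATAAA in 14.2% and TGANTCA in 7.33%. The Lgals8 window had 2 matches to GGGCGG, found in 33.1% of promoters, and none of the other letters. Neither glucocorticoid receptor pattern, found in 0.439% (palindrome) and 20.7% (hexamer) of promoters, was in the windows of Lgals3bp, Lgals8, Lgals9 or Lgals5. A match is a description of letters, not a bound site.

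Of the other galectin genes, Lgalsl was the 1 measured above the filter. It encodes a galectin-related protein that lacks the sugar-binding residues of the family, and both its probe sets were higher with corticosterone. The brighter (1373515_at) read 1851, 2115 and 1976 with corticosterone and 1120, 1051 and 1074 with vehicle, and the groups did not overlap. Its log2 fold change was 0.85 ± 0.08 (SE; limma adjusted p = 5.3e-05). The second (1376867_at) read 758, 551 and 430 with corticosterone and 371, 350 and 246 with vehicle, and its log2 difference was 0.78 ± 0.11 (SE; limma adjusted p = 8.1e-04). Without the couple as a term the second did not pass (limma adjusted p = 0.12) while the brighter one did (0.0068).

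The other 5 galectin genes with a probe set of their own, Lgals2, Lgals4, Lgals7, Lgals12 and the lens galectin-like gene Grifin, lay below the filter. Lgals7 and Lgals12 were under the background on all 6 arrays, at 3.13 to 7.44 and 2.55 to 12.9 with corticosterone and 2.19 to 2.95 and 1.85 to 8.19 with vehicle. Lgals4 ranged from 10.2 to 47.6 with corticosterone and from 2.0 to 20.7 with vehicle. Grifin ranged from 21.2 to 57.4 with corticosterone and from 39.3 to 56.1 with vehicle. Lgals2, which has 6 genes between it and Lgals1 in the gene table, read 4.83, 1.99 and 5.25 with corticosterone and 4.98, 2.88 and 60.9 with vehicle, so 1 vehicle array stood above background. Lgals5, Lgals6 and Clc had no probe set of their own in the annotation used here.

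**Figure D2:**
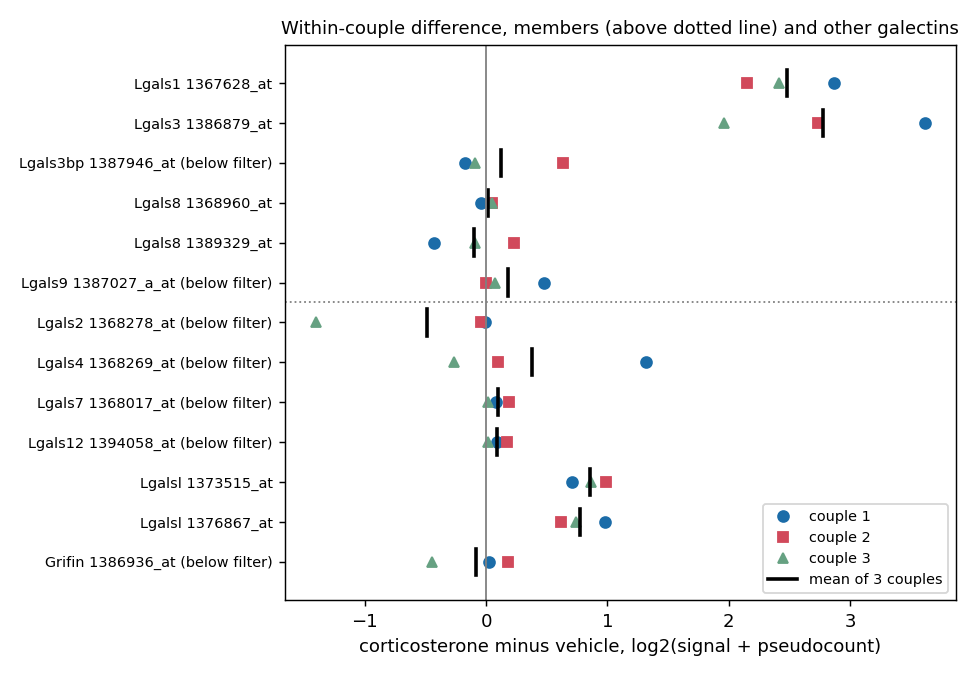
Corticosterone minus vehicle on the log2(signal + 28.6) scale within each of 3 couples, with the mean as a bar, for the 6 described probe sets above the dotted line and 7 probe sets of other galectin genes below it. Lgals1 and Lgals3 lie from 1.96 to 3.62, both Lgalsl probe sets from 0.61 to 0.99, and the points of the others scatter around 0, with Lgals2 and Lgals4 each having 1 couple far from it.

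Whether signals differed between couples, beside the treatment, was not used to choose the genes and was tested with limma's F-test. Lgals1 differed between couples (limma adjusted p = 0.0028), where 15.1% of all tested probe sets did (31.5% at an unadjusted p under 0.05). Its geometric mean signal over both treatments was 4465, 3919 and 2365 in couples 1, 2 and 3. Lgals3 ran at 404, 452 and 230 and did not pass (limma adjusted p = 0.088, unadjusted 0.019). The Lgals8 probe sets did not pass either (0.21 and 0.90). The Lgals1 call rested on couple 3, since it was lost without that couple (limma adjusted p = 0.40), and also without the intensity trend of the variance (0.10). Without couple 1, Lgals1 and Lgals3 both passed (6.5e-05 and 0.0064).

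The genes whose signals ran closest to each galectin over the 6 arrays were found by the root mean square difference of log2 signals, each centred on its own mean. For Lgals1 these were Npy (0.26, Pearson r = 0.98), Cryab (0.27), Myof (0.36), Id3 (0.37) and Igsf11 (0.37). Npy is a neuropeptide, Cryab a small heat shock protein and Id3 an inhibitor of basic helix-loop-helix factors. For Lgals3 they were Myof (0.14, r = 1.00), Plau (0.21), Tpm2 (0.23), Hspb1 (0.28) and Cryab (0.28). Myof is a membrane repair protein, Plau the urokinase plasminogen activator, Tpm2 a tropomyosin and Hspb1 a small heat shock protein. Myof and Cryab were on both lists. Myof read 467, 499 and 177 with corticosterone and 16.8 to 47.9 with vehicle. Its lowest corticosterone signal was in couple 3, as for Lgals1 and Lgals3, which follows from its choice by closeness to them. Plau, Tpm2 and Hspb1 were under the background on all 3 vehicle arrays, and Myof on 2 of them. Myof, Plau, Tpm2 and Hspb1 passed the filter only through the corticosterone arrays. The same contrast thus decided their entry, and their nearness to Lgals1 or Lgals3 is a description. The 6 points share treatment and couples, and 195 and 311 of 9907 other genes reached r of 0.95 with Lgals1 and Lgals3. Lgals1 and Lgals3 correlated by 0.98 with each other. The nearest genes to the brighter Lgals8 probe set were Bhlhe40 (0.05), Zfp575, Lrrc57, Lrrc1 and Rab11fip3 (0.06 each), and 4 genes reached r of 0.95 with it.

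**Figure D3:**
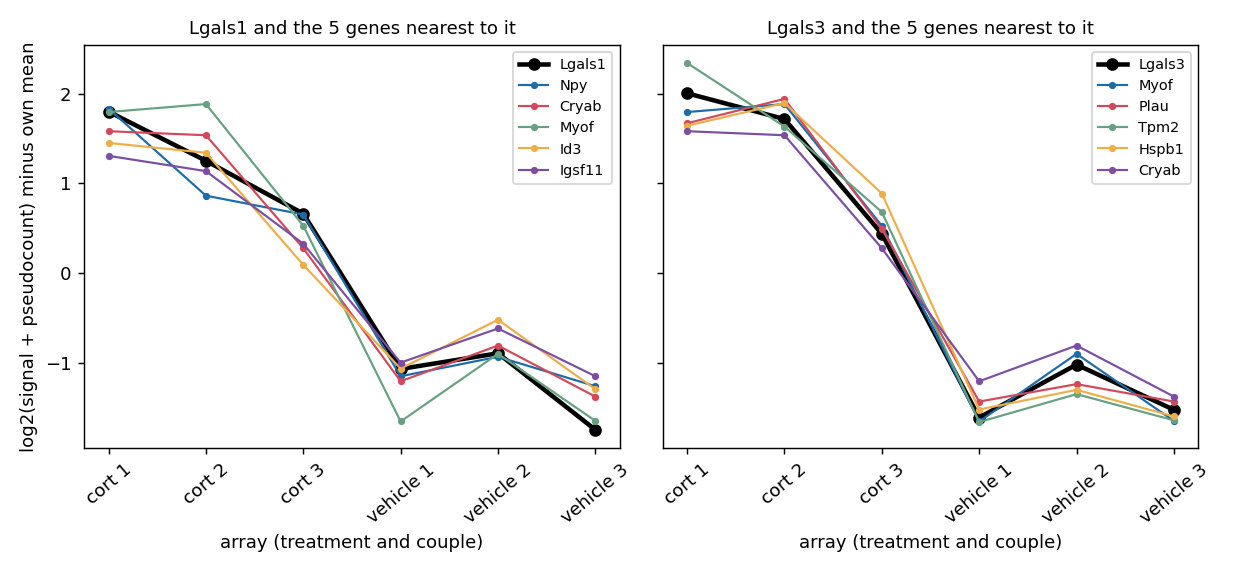
Signals of Lgals1 (left) and Lgals3 (right) and of the 5 genes nearest to each, as log2(signal + 28.6) minus the gene's own mean, over the 3 corticosterone arrays and then the 3 vehicle arrays. Lines only join the points of 1 gene. In both panels corticosterone array 3 is the lowest of its group for Lgals1 and Lgals3, and for the nearest genes, which were chosen for this closeness.

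The sugar chains that galectins bind are made by a set of Golgi enzymes. Of 21 tested enzymes for N-glycan branching, galactosylation and sialylation 1 was higher and 0 lower with corticosterone, at a limma adjusted p under 0.05, where 11.7% and 7.77% of 9910 genes were (1 probe set per gene). At an unadjusted p under 0.05 the counts were 3 and 0. The median log2 fold change of the 21 was 0.07, against −0.002 over all genes. St6gal1, whose α2,6-linked sialic acid caps galactose and hinders Lgals1, read 879, 1228 and 912 with corticosterone and 667, 896 and 686 with vehicle. Its groups overlapped, while each couple was higher with corticosterone, by 0.41 ± 0.08 (SE; limma adjusted p = 0.0063). That call was lost without couple 2 (adjusted p = 0.072), without the couple term (0.26) and without the intensity trend (0.0505). Mgat1, Mgat2, Mgat4a and Mgat4b, which start and extend the N-glycan branches, had log2 fold changes of 0.01, 0.02, 0.09 and 0.09 and did not pass (limma adjusted p from 0.48 to 0.97). Mgat5, which adds the branch favoured by galectins, lay below the filter at 43.5 ± 8.94 with corticosterone and 33.5 ± 18.2 with vehicle (SD, n = 3 each).

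The next list held surface and matrix glycoproteins to which galectins or Lgals3bp are known to bind. Like the other gene lists here, it was chosen with earlier results of these data known, so its counts are given as a description. Of 24 tested 10 rose, 3 fell and 11 did not pass, with a median log2 fold change of 0.23, where 11.7% of all 9910 genes were called higher and 7.77% lower. Without the couple as a term 1 rose and 1 fell, without couple 2 the counts were 4 and 2, and without the intensity trend 6 and 2. Centring each array on its median left 7 higher and 4 lower. Below the filter and not tested, Itga7, Mertk and Thy1 had every corticosterone signal above every vehicle signal, while Itga1, Lama1 and Vtn overlapped. Itga7 read 187, 157 and 39.9 with corticosterone and 9.09, 3.28 and 8.23 with vehicle, the last 3 under the background. Fn1, fibronectin, read 2632, 3094 and 1225 with corticosterone and 568, 1349 and 582 with vehicle. Its groups overlapped, couple 2 being the highest in both, and the log2 fold change was 1.46 ± 0.17 (SE; limma adjusted p = 2.0e-04). The basement membrane collagens Col4a1 and Col4a2 rose by 1.05 and 0.87 (limma adjusted p = 2.8e-05 and 5.9e-04). Col6a1, a type VI collagen to which Lgals3bp binds, read 127, 258 and 78.1 with corticosterone and 19.2, 61.3 and 7.99 with vehicle. It passed the filter only through the corticosterone arrays, so the same contrast decided its entry, and its call among the 10 is a description. Col6a1 was under the background on 2 of 3 vehicle arrays. The size of its log2 fold change therefore rests on the pseudocount, being 1.64 at 28.6 and 0.94 at 100. In couple 2 the Col6a1 and Fn1 signals were the highest in both groups, and so was the summed signal of 11 meningeal, pericyte and fibroblast markers, at 2898 with corticosterone and 1701 with vehicle. Without couple 2 Fn1 was higher by 1.60 (limma adjusted p = 0.0047), while Col6a1 no longer passed the filter. The part of those markers in these differences was not tested.

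On the cell surface Cd44, a hyaluronan receptor, read 448, 625 and 370 with corticosterone and 197, 301 and 269 with vehicle (log2 fold change 0.83 ± 0.14, SE; limma adjusted p = 0.0023). Nrp1, a co-receptor of semaphorins and of vascular endothelial growth factor, rose by 0.80 (adjusted p = 0.0038, and 0.061 without couple 2). The remaining 4, named after their values were seen, were the laminin chain Lamc1 (0.41), Cd47 (0.32), Bsg (0.27) and the lysosomal membrane protein Lamp1 (0.27). All 4 lost their calls without couple 2 (limma adjusted p from 0.054 to 0.23), and Cd47, Bsg and Lamp1 also with median centring (0.094 to 0.12). A second Cd47 probe set was not called (0.21, limma adjusted p = 0.14).

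The 3 that fell were the transferrin receptor Tfrc, the amino acid transporter subunit Slc3a2 and the adhesion molecule Mcam. Tfrc read 8081, 6801 and 7880 with corticosterone and 10258, 11058 and 10596 with vehicle (log2 fold change −0.49 ± 0.07, SE; limma adjusted p = 8.9e-04). Slc3a2 and Mcam had log2 fold changes of −0.43 and −0.85 (limma adjusted p = 8.8e-04 and 0.017). Mcam was not called without couple 2 or 3 (0.057 and 0.078), without the filter (0.069) or with the mean of its probe sets (−0.46, 0.18). Its second probe set had a log2 fold change of −0.07 (limma adjusted p = 0.87). Tfrc was not called without the intensity trend (0.057). Itgb1, the integrin β1 chain, had signals of 6759, 6613 and 6162 with corticosterone and 5489, 5804 and 5725 with vehicle. The groups did not overlap, and its log2 fold change of 0.20 ± 0.06 (SE) just missed the threshold (limma adjusted p = 0.0503). Its second, dimmer probe set was called higher (0.35 ± 0.06, SE; limma adjusted p = 0.0043). Itga5, Lamp2 and the matrix proteins Lamb1 and Nid1 did not pass, with 0.30, 0.09, 0.50 and 0.16 (adjusted p = 0.24, 0.43, 0.054 and 0.17).

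Of 15 tested genes that act with Lgals3, Lgals8 and Lgals9 at damaged lysosomes, 0 were higher and 1 lower at a limma adjusted p under 0.05 (11.7% and 7.77% over all genes), and 2 and 2 at an unadjusted p under 0.05. Their median log2 fold change was 0.03. Trim16, on the same list, lay below the filter and is not in these counts. It read 60.3, 93.9 and 60.3 with corticosterone and 20.1, 41.1 and 29.9 with vehicle, without overlap between groups. How often probe sets below the filter do so was not counted. With no filter on low signals 17 genes of the list were tested and 0 were called. Prkaa1, a catalytic subunit of the AMP-activated kinase, read 1082, 1224 and 1180 with corticosterone and 1368, 1535 and 1299 with vehicle (log2 fold change −0.26 ± 0.08, SE; limma adjusted p = 0.043). That call was lost without couple 1 (adjusted p = 0.20), without couple 2 (0.23), without the couple term (0.26) and without the intensity trend (0.15). A second, dimmer Prkaa1 probe set was not called (−0.05, adjusted p = 0.86). The autophagy genes Atg16l1, Sqstm1, Tax1bp1 and Optn had −0.17, 0.26, −0.12 and 0.35 and did not pass (limma adjusted p from 0.059 to 0.26). Calcoco2, the receptor that binds Lgals8 on broken membranes, had no probe set of its own in the annotation used here.

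**Figure D4:**
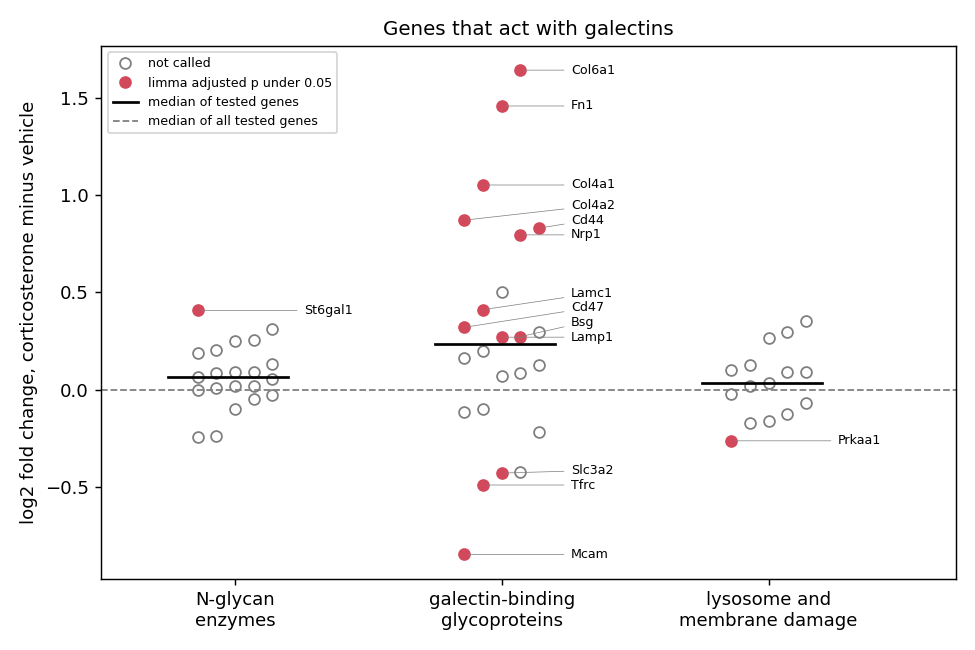
Log2 fold change (corticosterone minus vehicle) of the tested genes of 3 lists, with filled points for a limma adjusted p under 0.05, the median of each list as a bar and the median of all tested genes as a dashed line. Tested glycoproteins spread from −0.85 (Mcam) to 1.64 (Col6a1, which passed the filter only through the corticosterone arrays). The enzymes and the lysosome genes lie between −0.26 and 0.41 with 1 filled point each.

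Markers of other cell types were set beside Lgals1 and Lgals3. Over all 9910 tested genes 11.7% were called higher and 7.77% lower. The summed signal of 8 astrocyte markers was 26016 to 32439 with corticosterone and 15394 to 20643 with vehicle, and 3 of the 4 tested were called higher. Of 17 microglia and macrophage markers 4 were tested and 1, Cd14, was called higher, at 205, 337 and 166 with corticosterone and 84.0, 86.0 and 106 with vehicle. Aif1, Cd68 and Fcer1g did not pass (limma adjusted p = 0.74, 0.93 and 0.38). The sum of the 17, Cd14 included, was 718 to 1114 with corticosterone and 533 to 654 with vehicle. Of their 5 defining markers Itgam was under the background on all 6 arrays and Ptprc on 5. Aif1 and Csf1r were above it on all 6 and Cx3cr1 on 5. These 5, which do not include Cd14, summed to 186, 205 and 199 with corticosterone and 137, 133 and 145 with vehicle. That sum was higher with corticosterone in all 3 couples, without overlap between groups. Only 1 of the 5 passed the filter, and 0 were called. The median signal of the arrays was higher with corticosterone too (124 to 134 against 108 to 122), and its part in these low sums was not tested. The sum of 11 meningeal, pericyte and fibroblast markers was 941, 2898 and 674 with corticosterone and 474, 1701 and 553 with vehicle, so both arrays of couple 2 stood apart. Of these markers 5 were tested and 2, Acta2 and Col1a2, were called higher. Col1a2 read 87.0, 691 and 57.4 with corticosterone and 6.42, 401 and 32.1 with vehicle. A second Col1a2 probe set was not called (log2 fold change 0.38, limma adjusted p = 0.25). Without couple 2 the log2 difference was 2.64 for Lgals1 and 2.79 for Lgals3. The meningeal, pericyte and fibroblast sum was higher with corticosterone in couples 1 and 3 too, so leaving out couple 2 does not remove that difference. The 7 endothelial markers summed to 227 to 389 with corticosterone and 163 to 261 with vehicle, and 0 of the 1 tested was called (0 at an unadjusted p under 0.05, by limma). The sum of 10 neural progenitor markers, of which 2 were called higher and 0 lower, was 80007, 85266 and 88690 with corticosterone. With vehicle it was 67725, 77128 and 83477, so that sum was higher with corticosterone in each couple, while the groups overlapped. Of 7 tested neuron markers 0 were called higher and 1 lower, Tubb3 (log2 fold change −0.52, limma adjusted p = 0.034). Of 4 tested oligodendrocyte precursor markers 0 were called higher and 1 lower, Pdgfra (−1.64, limma adjusted p = 2.9e-05), which read 633, 214 and 1000 with corticosterone and 2892, 538 and 2970 with vehicle. The neuron sums were 11528, 12757 and 13845 with corticosterone and 13586, 13091 and 14487 with vehicle. The oligodendrocyte precursor sums were 16620, 17971 and 23032 with corticosterone and 21579, 19944 and 24482 with vehicle. Both sums were lower with corticosterone in each of the 3 couples, while the groups overlapped. The part of any of these markers in the Lgals1 and Lgals3 differences was not tested.

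**Figure D5:**
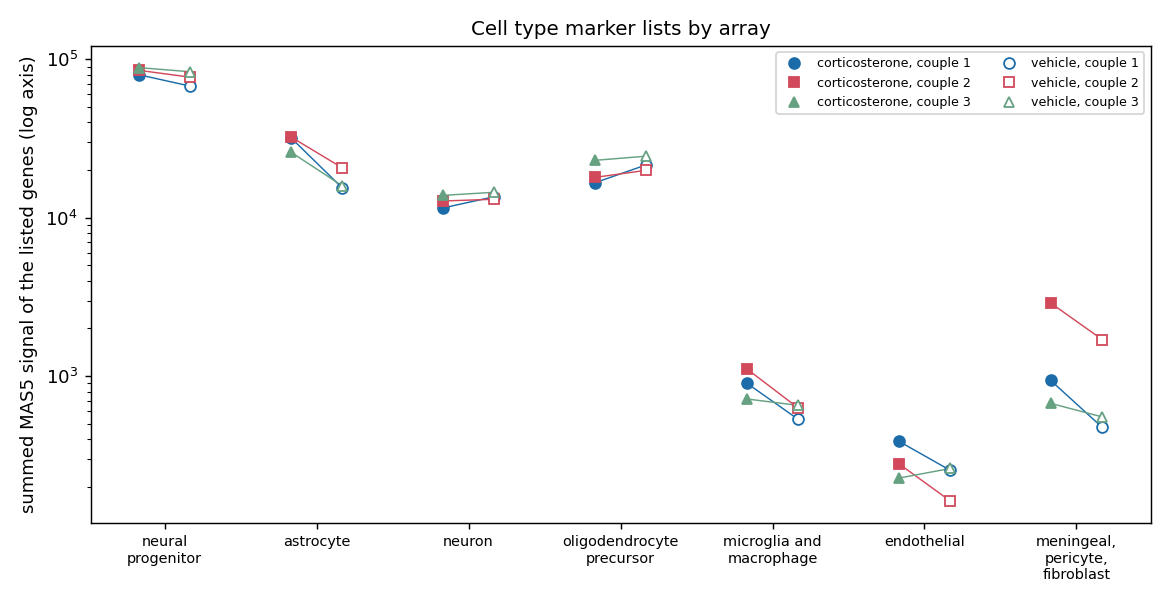
Summed MAS5 signal (log axis) of 7 cell type marker lists, with corticosterone (filled) left of vehicle (open) and 1 line per couple. Astrocyte sums, and microglia sums, which Cd14 enters, are higher with corticosterone in all 3 couples without overlap between groups, and couple 2 is the highest in both groups for the meningeal, pericyte and fibroblast list.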

How the data were processed

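The deposited values are signal intensities per probe set on a linear scale, made with MAS5 per the submitters' processing notes, with no version or settings named there. Per the labels' protocols, biotin-labelled cRNA was made from 3 µg TRIzol-extracted RNA through oligo(dT)-primed cDNA, which weights signal towards the 3′ end. Leaving out 2% of values at each end, the mean was 500.2 on each of the 6 arrays.

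The members and gene lists were chosen with earlier results of these data known. Of the 31099 probe sets, 57 controls were left out. The platform annotation gave 1 symbol for 20826, several for 436 and none for 9780. Named were all member and other galectin probe sets and the 5 nearest genes of each member. Per list the plan was at most 6 called genes each way, by size, with up to 4 uncalled ones in list order. The surface and matrix glycoproteins departed from that plan, and all their tested genes were named. Some genes below the filter were named as well. Signals became log2(signal + 28.6), the pseudocount being the 25th percentile, and 18625 probe sets above the 40% filter (a signal of 63.6) entered a limma model (version 3.58.1, R 4.3.3) of treatment plus couple, with lmFit and a trended eBayes. Tests are two-sided with Benjamini-Hochberg adjustment over all of them and a threshold of 0.05. The brightest probe set stood for a gene. The SE of limma is drawn towards that of probe sets of like signal. The series text gives the couples, and titles number them. Deviations from group means correlated by 0.57, 0.52 and 0.35 within couples 1, 2 and 3 and by −0.48 to 0.003 otherwise. The fit was tested on simulated data. Alternatives changed the couple term, the couples, scaling, pseudocount, filter and variance model. Promoters came from RefSeq (GRCr8) and were aligned with Biopython 1.88. Protein sequences were not used here.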

Additional observations from a re-analysis of the deposited data

How the results depend on the processing

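The differences of Lgals1 and Lgals3 stayed positive under the 11 alternatives run on them, from 2.28 to 2.64 and from 2.30 to 3.18 on the log2 scale. Lgals8 had no settled sign: 1368960_at moved to −0.088 with median centring, and 1389329_at ran from −0.26 to 0.07. Lgals9 ran from 0.04 to 0.28 and Lgals3bp from −0.13 to 0.27. Over all probe sets 2953 were called. Without the couple as a replicate block 417 were, without the filter on low signals 1862, without the intensity trend 1262, and without any 1 couple 1174 (couple 2), 1722 (couple 1) and 2814 (couple 3). With median centring the tested probe sets had a median log2 difference of −0.11, against −0.004. The 13 calls among glycoproteins became 2 without the replicate block, 8 without the trend and 6 to 14 without 1 couple. The 1 call among N-glycan enzymes became 0 in limma without the block (unadjusted p under 0.05: 2 higher, 0 lower), without the trend (3 and 0) or without couple 2 (2 and 0), and was 0 to 1 over the couples left out. The 1 lysosome call became 0 in limma without the block (unadjusted p under 0.05: 1 higher, 1 lower), without the trend (3 and 1), without the filter (2 and 2) or with the mean of a gene's probe sets (0 and 1), 2 with median centring, and 0 to 2 without 1 couple. The 1 couple effect, of Lgals1, became 0 without the trend (1 at an unadjusted p under 0.05), and counts were 0 to 2 without 1 couple. The Lgalsl call of its brighter probe set held in every alternative, the other lost its call without the block. With pseudocounts of 16 and 100, with quantile normalization and with the lowest 60% left out, no count moved by over 1.5 times. Why counts moved was not tested.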
